A study of Arabidopsis thaliana with 16 samples.

Results

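The genes described here are 5 genes of cell division in the Arabidopsis thaliana root: the Aurora kinases AUR1 (AT4G32830) and AUR2 (AT2G25880), the replication factor PRL (PROLIFERA, AT4G02060), and the histone H2B genes HTB1 (AT1G07790) and HTB4 (AT5G59910). Each is represented by 1 probe set that the array annotation gives to that gene alone, and all 5 passed the filter on low signal, among 9130 named genes that did. They were chosen by name, over all groups of the study. The study asked how stages of root development respond to acid medium. Roots of 6-day-old Columbia seedlings were cut into 4 longitudinal zones, numbered 1 to 4. All seedlings had first grown for 5 days at pH 5.7, and were then moved for 24 h to medium at pH 4.6 or at pH 5.7, both with 3 mM DMG and otherwise of the same composition. Each zone and pH had 2 arrays, which gave 8 groups and 16 arrays. The labels call the zones developmental stages and do not say which tissue each covers, so zones are named by number. They do not say that the 2 replicates of a group came from separate cultures, so the spread behind each p-value may be technical.

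In the growing root, cells divide near the tip, then stop dividing, elongate and differentiate. PRL is a subunit of the MCM helicase, which is loaded on DNA before replication and opens it during S phase. HTB1 and HTB4 encode H2B, a core histone of the nucleosome, and replication-coupled histone genes are transcribed mainly in S phase. AUR1 and AUR2 are the alpha-type Aurora kinases of Arabidopsis, which sit on the mitotic spindle and the forming cell plate. The genes thus belong to successive steps of the cycle, from replication to cytokinesis. In these bulk samples, fewer cells of a type and less RNA per cell cannot be told apart.

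Levels are MAS5 signal intensities, linear and scaled by the authors. The signal of one probe set cannot be set against that of another, so levels are compared only within a gene. Pairs of genes are compared only through changes of their ratio between groups and through correlations of their profiles. Differences are log2 fold changes on the log2(intensity + 16) scale with the standard error (SE) of a limma fit to all 16 arrays, n = 2 arrays a group, and a call is an adjusted p (Benjamini-Hochberg over 16405 probe sets) under 0.05. Median intensities of the arrays ran between 64.7 and 101. The mean log2 signal of 69 plastid-encoded probe sets lay between 7.21 and 10.3. It was more than 1 log2 unit higher in replicate 2 than in replicate 1 in 4 groups. These were zone 2 at pH 5.7, zone 3 at pH 4.6, zone 3 at pH 5.7 and zone 4 at pH 5.7. In the other groups, the first-quartile intensity of all probe sets in replicate 2 was 0.822 to 1.19 times that in replicate 1. In the 4 replicates of raised plastid signal it was 1.55 to 1.96 times that of the other array. Called results of the 5 genes that rest on these arrays are given with and without those 4 replicates. Calls of other genes are given for all 16 arrays only. Statements that the arrays of 1 group lay above or below those of another describe the values. For 2 arrays against 2 an exact test cannot give a p under 0.333, and the share of all probe sets so separated was not counted.

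The clearest pattern was along the root. HTB1 and HTB4 fell in zones 3 and 4 relative to zones 1 and 2 at both pH values, by 2.14-fold and 2.13-fold at pH 4.6 and by 4.24-fold and 3.72-fold at pH 5.7, and PRL fell by 1.88-fold at pH 5.7. The group means of both histone genes were lowest in zone 3 at either pH. The Aurora kinases did not pass the limma test in any zone comparison. As a mean over zones, AUR2 was called lower at low pH, by 1.69-fold, but the call did not hold without some arrays. AUR1 passed in none of the 15 comparisons.

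**Figure D1:**
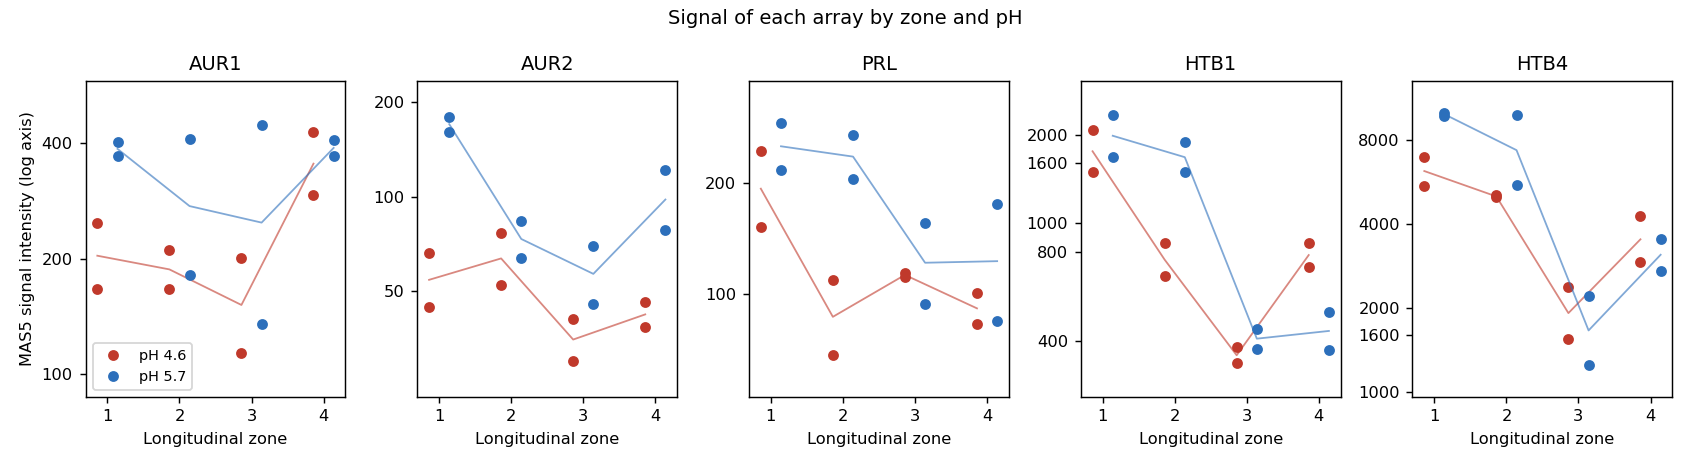
MAS5 signal intensity (log axes, a separate scale for each gene) against longitudinal zone, with 1 point per array, pH 4.6 left in red and pH 5.7 right in blue, and lines through the group means on the log2(intensity + 16) scale. HTB1 and HTB4 are highest in zone 1 and lowest in zone 3, while the 2 arrays of AUR1 in zone 3 at pH 5.7 lie far apart, at 135 and 448.

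The counts over the 5 genes read as follows beside those over all tested probe sets. Between zones 3 and 4 and zones 1 and 2, 2 genes were lower at pH 4.6, where 18.1% of all tested probe sets were lower, and 3 were lower at pH 5.7, where 25.8% were. In zone 2 against zone 1, 1 gene was lower at pH 4.6 (3.44% of probe sets) and 0 were called at pH 5.7 (3.14% called either way, and 1 of the 5 genes at an unadjusted p under 0.05). In zone 3 against zone 2, 2 genes were lower at pH 4.6 (9.53%) and 2 at pH 5.7 (16.9%). In zone 4 against zone 3, 1 gene was higher at pH 4.6 (1.90%) and 0 were called at pH 5.7 (12.0% either way, and 1 of the 5 genes at an unadjusted p under 0.05). The 2 genes lower in zone 3 were HTB1 and HTB4 at both pH values, at a step where many probe sets changed.

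For low pH against standard pH, limma called 0 of the 5 genes in each single zone. The share of probe sets called there was 0.683% in zone 1, 0.384% in zone 2, 2.80% in zone 3 and 2.91% in zone 4, and 1, 2, 0 and 2 of the 5 genes had an unadjusted p under 0.05. As a mean over the 4 zones, 1 gene was lower, where 2.40% of probe sets were. The interaction of pH and zone called 0 genes (1.59% of probe sets; 1 gene at an unadjusted p under 0.05), and the difference between the pH values in the fall along the root called 0 (1.01%; 2 genes at an unadjusted p under 0.05). All 5 genes had negative mean low pH values, between -0.76 and -0.16. Of all tested probe sets, 44.6% had a mean below -0.0034, 27.3% lay below HTB1 and 2.53% below AUR2.

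PRL, the helicase subunit, was strongest toward zone 1. At pH 4.6 its intensity was 152 and 243 in zone 1, 109 and 68.5 in zone 2, 114 and 111 in zone 3, and 83.0 and 100.4 in zone 4. At pH 5.7 it was 290 and 217 in zone 1, 205 and 270 in zone 2, 94.1 and 155 in zone 3, and 84.5 and 175 in zone 4. At pH 5.7 every array of zones 3 and 4 was below every array of zones 1 and 2, whereas at pH 4.6 the 2 sets overlapped because zone 2 was low. The highest group mean, zone 1 at pH 5.7 (253 ± 51.5, SD, n = 2), was 2.86 times the lowest, zone 2 at pH 4.6 (88.6 ± 28.5). Of the 7 pairs of neighbours in the order of group means, 6 overlapped in their arrays.

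The fall of PRL in zones 3 and 4 relative to zones 1 and 2 was -0.32 ± 0.28 at pH 4.6 (limma adjusted p = 0.413) and -0.91 ± 0.28 at pH 5.7 (adjusted p = 0.0141). The difference between these was 0.59 ± 0.40 (adjusted p = 0.575), so a different fall at the 2 pH values was not shown. The call at pH 5.7 was lost without replicate 1 of zone 1 (-0.81, adjusted p = 0.0600), replicate 2 of zone 2 (-0.81, adjusted p = 0.0512) or replicate 1 of zone 4 (-0.68, adjusted p = 0.0781), all at pH 5.7. Without the 4 arrays of raised plastid signal it was -1.21 (adjusted p = 0.0127). The low pH value of PRL was largest in zone 2, at -1.29 ± 0.40, with both arrays at pH 4.6 below both at pH 5.7, and it missed the threshold (adjusted p = 0.205). Its mean over the zones was -0.53 ± 0.20 (adjusted p = 0.138).

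HTB1 fell along the root at both pH values. At pH 4.6 its intensity was 2069 and 1494 in zone 1, 859 and 660 in zone 2, 335 and 380 in zone 3, and 856 and 711 in zone 4. At pH 5.7 it was 1681 and 2343 in zone 1, 1493 and 1887 in zone 2, 376 and 439 in zone 3, and 371 and 501 in zone 4. At pH 5.7 HTB1 was high in zones 1 and 2 and low in zones 3 and 4, with no overlap. At pH 4.6 it was already lower in zone 2, was lowest in zone 3, and in zone 4 lay in the range of zone 2. The group means ran over 5.63-fold, between 2012 ± 468 in zone 1 at pH 5.7 and 357 ± 31.6 in zone 3 at pH 4.6 (SD, n = 2 each).

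At pH 4.6 both of the first steps passed. Zone 2 was 1.21 ± 0.29 below zone 1 on the log2 scale (limma adjusted p = 0.0173) and zone 3 was 1.05 ± 0.29 below zone 2 (adjusted p = 0.0184). At pH 5.7 zone 2 differed from zone 1 by -0.24 ± 0.29 (adjusted p = 0.757) and zone 3 was 2.01 ± 0.29 below zone 2 (adjusted p = 8.52e-05). The first step at pH 4.6 lost its call without replicate 1 of zone 1 (adjusted p = 0.129) or replicate 2 of zone 2 (adjusted p = 0.172), and the second without replicate 1 of zone 2 (adjusted p = 0.171), replicate 1 of zone 3 (adjusted p = 0.109) or replicate 2 of zone 3 (adjusted p = 0.0557). The step at pH 5.7 kept its call without any 1 array, with values between -2.17 and -1.84. Without the 4 arrays of raised plastid signal, zone 3 against zone 2 gave -1.13 at pH 4.6 (adjusted p = 0.0412) and -1.95 at pH 5.7 (adjusted p = 0.00580).

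Zone 4 against zone 3 gave HTB1 a rise of 1.10 ± 0.29 at pH 4.6 (limma adjusted p = 0.0441) and a value of 0.08 ± 0.29 at pH 5.7 (adjusted p = 0.875). The rise lost its call without either array of zone 1 at pH 5.7, zone 2 at pH 4.6, zone 2 at pH 5.7, zone 3 at pH 4.6 or zone 4 at pH 4.6, with adjusted p between 0.0509 and 0.296 and values between 0.97 and 1.23. Without the 4 arrays of raised plastid signal it was 1.18 (adjusted p = 0.0947). Over the pairs of zones, HTB1 fell in zones 3 and 4 by 1.10 ± 0.20 at pH 4.6 (adjusted p = 0.000521) and by 2.08 ± 0.20 at pH 5.7 (adjusted p = 6.29e-07). The difference of 0.98 ± 0.29 between these had an unadjusted p of 0.00379 and an adjusted p of 0.124.

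Set by pH within a zone, HTB1 had values of opposite sign. In zone 2 both arrays at pH 4.6 were below both at pH 5.7, with a value of -1.14 ± 0.29 (limma adjusted p = 0.108). In zone 4 both arrays at pH 4.6 were above both at pH 5.7, with a value of 0.83 ± 0.29 (adjusted p = 0.143). Zones 1 and 3 had values of -0.17 and -0.18, each with an SE of 0.29 and with overlapping arrays. The interaction of pH and zone for HTB1 had an adjusted p of 0.0776, of 0.0369 without replicate 1 of zone 3 at pH 5.7, and of 0.203 without the 4 arrays of raised plastid signal. A different response in the zones was thus not shown. Its mean over the zones, -0.16 ± 0.14 (adjusted p = 0.59), joins these opposite values and is close to 0.

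**Figure D2:**
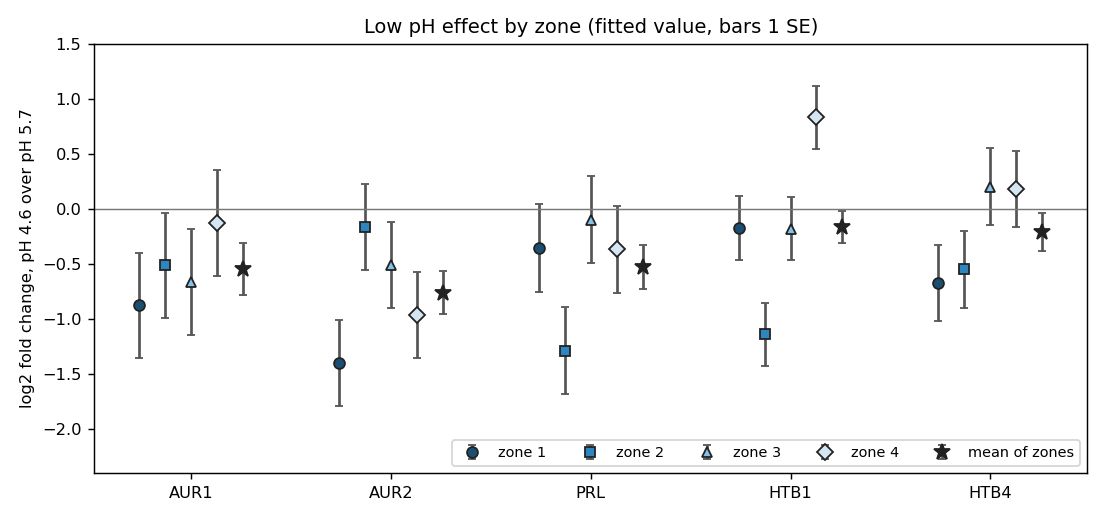
Fitted log2 fold change of pH 4.6 over pH 5.7 (vertical axis) for each gene in zones 1 to 4 and as the mean of the zones, with bars of 1 SE. HTB1 lies at -1.14 in zone 2 and at 0.83 in zone 4, and the mean of AUR2, at -0.76, is the one value that passed the threshold.

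HTB4, the second H2B gene, also fell in zones 3 and 4. At pH 4.6 its intensity was 6958 and 5477 in zone 1, 4966 and 5052 in zone 2, 2380 and 1544 in zone 3, and 4248 and 2917 in zone 4. At pH 5.7 it was 9961 and 9740 in zone 1, 9796 and 5485 in zone 2, 2207 and 1252 in zone 3, and 3543 and 2711 in zone 4. Every array of zones 3 and 4 was below every array of zones 1 and 2 at both pH values, and every array of zone 4 was above those of zone 3 of the same pH. Group means ran over 5.70-fold, between 9850 ± 156 in zone 1 at pH 5.7 and 1729 ± 675 in zone 3 at pH 5.7 (SD, n = 2 each).

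In zone 3 HTB4 was 1.38 ± 0.35 below zone 2 on the log2 scale at pH 4.6 (limma adjusted p = 0.0110) and 2.13 ± 0.35 below it at pH 5.7 (adjusted p = 0.000261). The call at pH 4.6 was lost without replicate 1 of zone 2 (adjusted p = 0.0702), replicate 2 of zone 2 (adjusted p = 0.0586) or replicate 2 of zone 3 (adjusted p = 0.116) at pH 4.6. Without the 4 arrays of raised plastid signal the step was -1.07 at pH 4.6 (adjusted p = 0.0361) and -2.14 at pH 5.7 (adjusted p = 0.00222). Zone 2 against zone 1 gave HTB4 -0.30 ± 0.35 at pH 4.6 and -0.43 ± 0.35 at pH 5.7 (adjusted p = 0.646 and 0.611). Zone 4 against zone 3 gave 0.87 ± 0.35 at pH 4.6 and 0.89 ± 0.35 at pH 5.7, and neither passed (adjusted p = 0.204 and 0.110). Zones 3 and 4 together were 1.09 ± 0.25 below zones 1 and 2 at pH 4.6 (adjusted p = 0.00246) and 1.90 ± 0.25 below them at pH 5.7 (adjusted p = 1.18e-05). The difference between the pH values, 0.80 ± 0.35, had an unadjusted p of 0.0354 and an adjusted p of 0.335.

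Both arrays of HTB4 at pH 4.6 were below both at pH 5.7 in zone 1 (-0.67 ± 0.35, adjusted p = 0.436) and zone 2 (-0.55 ± 0.35, adjusted p = 0.648) by limma. Arrays overlapped in zone 3 (0.20 ± 0.35) and zone 4 (0.18 ± 0.35). The mean over zones was -0.21 ± 0.17 (adjusted p = 0.567). Without the 4 arrays of raised plastid signal, zones 3 and 4 against zones 1 and 2 gave HTB1 -1.14 at pH 4.6 (adjusted p = 0.00189) and -2.16 at pH 5.7 (adjusted p = 8.62e-05). The same values of HTB4 were -0.94 at pH 4.6 (adjusted p = 0.00355) and -1.81 at pH 5.7 (adjusted p = 0.000154). Plant H2B genes are close in sequence, and how far each probe set also binds transcripts of the other copies was not tested.

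AUR2 was the only one of the 5 genes called for low pH, as a mean over zones, and the call did not hold without some arrays. At pH 4.6 its intensity was 66.0 and 44.5 in zone 1, 76.7 and 52.4 in zone 2, 40.8 and 30.1 in zone 3, and 46.3 and 38.5 in zone 4. At pH 5.7 it was 179 and 161 in zone 1, 63.9 and 83.9 in zone 2, 45.7 and 70.0 in zone 3, and 78.3 and 122 in zone 4. Every array at pH 4.6 was below every array at pH 5.7 in zones 1, 3 and 4, while in zone 2 the groups overlapped. Within a zone, an exact test of such a separation of 2 arrays from 2 cannot give a p under 0.333. The group of zone 1 at pH 5.7 (170 ± 12.9, SD, n = 2) stood clear of the next group in order, and the other 6 pairs of neighbours overlapped. AUR2 reached the filter on low signal in 3 of the 4 zones, and the other 4 genes reached it in all.

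The low pH value of AUR2 was -1.40 ± 0.39 in zone 1, -0.17 ± 0.39 in zone 2, -0.51 ± 0.39 in zone 3 and -0.97 ± 0.39 in zone 4, and none of these passed by limma (adjusted p = 0.120, 0.939, 0.559 and 0.220). The mean, -0.76 ± 0.20, passed (adjusted p = 0.0315), and the interaction with zone did not (adjusted p = 0.481). Exact permutation tests that exchanged pH labels within zones were run for each of the 5 genes (two-sided, 1296 arrangements, smallest possible 0.00154). They were not adjusted for the number of genes. By exact permutation test, PRL had p = 0.034, AUR1 p = 0.0556, HTB4 p = 0.324 and HTB1 p = 0.483. For the mean of AUR2 the exact permutation test gave p = 0.00463. Without the 4 arrays of raised plastid signal the mean was -0.56 (adjusted p = 0.178). It also lost its call (adjusted p between 0.0515 and 0.0849) without either array of zone 1 at pH 5.7 or of zone 4 at pH 4.6. The same held without replicate 2 of zone 1 at pH 4.6, zone 2 at pH 4.6, zone 2 at pH 5.7, zone 3 at pH 4.6 or zone 4 at pH 5.7.

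In zone 1, where the low pH value of AUR2 was largest, the mean plastid-encoded log2 signal was 9.91 and 10.3 at pH 4.6, against 8.25 and 8.78 at pH 5.7. The part of this difference in the result was not tested. Along the root, AUR2 in zone 2 against zone 1 was 0.18 ± 0.39 at pH 4.6 and -1.06 ± 0.39 at pH 5.7 (limma adjusted p = 0.834 and 0.178). Zones 3 and 4 against zones 1 and 2 gave -0.46 ± 0.28 at pH 4.6 and -0.50 ± 0.28 at pH 5.7 (adjusted p = 0.220 and 0.153). Exact permutation tests of this contrast over both pH values exchanged zone labels within pH (two-sided, 4900 arrangements, unadjusted). For AUR2 the difference was -0.48 (exact permutation p = 0.0384). The same exact test gave p = 0.777 for AUR1, 0.02 for PRL, 0.00163 for HTB1 and 0.000408 for HTB4.

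AUR1 had the widest spread between replicates. At pH 4.6 its intensity was 248 and 166 in zone 1, 167 and 210 in zone 2, 113 and 201 in zone 3, and 428 and 292 in zone 4. At pH 5.7 it was 372 and 403 in zone 1, 182 and 411 in zone 2, 135 and 448 in zone 3, and 371 and 409 in zone 4. Both arrays at pH 4.6 were below both at pH 5.7 in zone 1, and the groups overlapped in the other 3 zones. All 7 pairs of neighbours in the order of its group means overlapped. Both arrays of zone 4 were above both arrays of zone 3 at pH 4.6, and at pH 5.7 they lay between them.

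The mean low pH value of AUR1 was -0.55 ± 0.24 by limma (adjusted p = 0.213, 95% interval -1.06 to -0.03), with zone values of -0.88, -0.51, -0.66 and -0.13 in zones 1 to 4, each with an SE of 0.48. Without replicate 1 of zone 3 at pH 5.7 the mean was -0.75 (adjusted p = 0.0326), and without the 4 arrays of raised plastid signal it was -0.28 (adjusted p = 0.430). Zone 4 against zone 3 gave 1.15 ± 0.48 at pH 4.6 (adjusted p = 0.229) and 0.62 ± 0.48 at pH 5.7 (adjusted p = 0.425). Zones 3 and 4 against zones 1 and 2 gave 0.24 ± 0.34 at pH 4.6 and -0.06 ± 0.34 at pH 5.7 (adjusted p = 0.632 and 0.898).

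The spread of AUR1 within groups was 0.57 on the log2 scale (SD over the 8 pairs), against 0.25 for HTB1, 0.27 for AUR2, and 0.38 each for PRL and HTB4. In 7 of the 8 replicate pairs, AUR1 was higher in the array with the higher plastid-encoded signal, by 1.62 in zone 3 and 1.11 in zone 2 at pH 5.7. HTB4 went the other way in 6 of the 8 pairs, and in each of the 4 pairs with a plastid difference over 1. The first-quartile intensity of all probe sets was also higher in replicate 2 of those 4 pairs. The part of the plastid-encoded signal, or of this array-wide difference, was not tested.

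**Figure D3:**
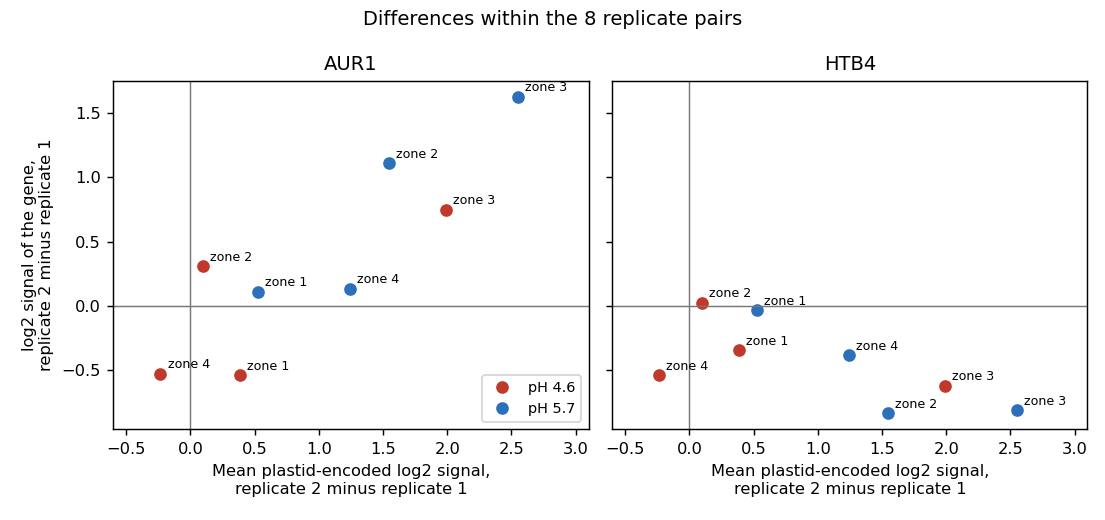
Replicate 2 minus replicate 1 on the log2 scale for AUR1 (left) and HTB4 (right) against the same difference in the mean of 69 plastid-encoded probe sets, 1 point for each of the 8 groups. AUR1 reaches 1.62 in the pair with the largest plastid difference (2.55, zone 3 at pH 5.7), where HTB4 is at -0.81.

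Pairs of these genes were compared through their log2 ratio within each array, with 3 ratios tested for pH and for zone by exact permutation tests (two-sided, unadjusted over 6 tests). The ratio of AUR2 to AUR1 differed by -0.22 between pH 4.6 and pH 5.7 (exact p = 0.404) and by -0.56 between zones 3 and 4 and zones 1 and 2 (exact p = 0.0490). Different responses of the 2 kinases to low pH were therefore not shown, although AUR2 alone was called. The ratio of HTB1 to HTB4 differed by 0.04 for pH (exact p = 0.877) and -0.10 for zone (exact p = 0.718). The ratio of PRL to HTB1 was 0.98 higher in zones 3 and 4 than in zones 1 and 2 (exact p = 0.00327). For low pH that ratio differed by -0.36 (exact p = 0.137).

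Over the 16 arrays, HTB1 and HTB4 had the highest correlation among the 5 genes (Pearson r = 0.86, and 0.94 over the 8 group means). PRL correlated with HTB1 at 0.68 and with AUR2 at 0.59, AUR1 with AUR2 at 0.57, and AUR1 with HTB4 at 0.10. The arrays share their zones and their scaling, so these values describe the profiles only. Ranked by r over the 16 arrays, HTB4 stood at 357 for HTB1, HTB1 at 269 for HTB4, and PRL at 1485 for HTB1. Among 9129 other named genes, those most like HTB1 were AT1G07070, AT1G28395 and AT3G18600 (r = 0.97 each), and those most like HTB4 were AT3G03960, AT3G16780 (0.96 each) and AT5G27400 (0.95). Most like PRL were AT3G12180, AT2G43480 and AT4G39680 (0.84 each). Most like AUR2 were AT1G01300 (0.82), AT2G31440 (0.81) and AT5G20130 (0.80), and most like AUR1 were AT5G60930 (0.87), AT2G16270 and AT3G52110 (0.81 each).

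Other genes of the cycle give the setting. Of 150 listed cell division genes, 15 were named in the array annotation and 13 were tested, so statements cover those 13, and 0 of 35 listed cyclins and cyclin-dependent kinases were among them. In zones 3 and 4 against zones 1 and 2, 3 were lower and 1 higher at pH 4.6 (list median -0.08, all probe sets -0.07), where 18.1% of all probe sets were lower. At pH 5.7, 5 were lower and 1 higher (list median -0.58, all probe sets -0.09), where 25.8% were lower. Of all 16405 probe sets, 5952 were called either way at pH 4.6, 2963 of them lower. At pH 5.7, 7790 probe sets were called either way, 4226 of them lower. Lower at both pH values were BUB3.1, a spindle checkpoint protein (-1.30 ± 0.35 at pH 4.6 and -2.11 ± 0.35 at pH 5.7), ASF1B, a histone chaperone (-1.54 ± 0.32 and -2.55 ± 0.32), and HTB2, another H2B gene (-1.06 and -1.72). AUR3, the Aurora kinase of the beta type, which marks centromeric chromatin, fell by 1.76 ± 0.34 at pH 5.7 and had a value of -0.85 ± 0.34 at pH 4.6 (limma adjusted p = 0.000548 at pH 5.7 and 0.0662 at pH 4.6). TOPII, DNA topoisomerase II, fell at pH 5.7 (-1.23 ± 0.36) and had a value of -0.08 ± 0.36 at pH 4.6 (limma adjusted p = 0.882).

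Of the 13 genes, SIM was the one called higher in the older zones. SIM (SIAMESE) is an inhibitor of cyclin-dependent kinases known for the switch of leaf hairs from mitosis to endoreduplication. Its intensity was 37.6 and 30.0 in zone 1 and 583 and 783 in zone 2 at pH 4.6, and at pH 5.7 it was 173 and 60.8 in zone 1 and 847 and 897 in zone 2. The rise in zone 2 relative to zone 1 was 3.80 ± 0.35 at pH 4.6 and 2.88 ± 0.35 at pH 5.7 (limma adjusted p = 2.25e-05 and 0.000366). In HTB1 the same step was a fall at pH 4.6 and was not called at pH 5.7. SIM was also the one list gene called for mean low pH (-0.63 ± 0.18, adjusted p = 0.0450). In zone 2 the low pH values of all 13 were negative (list median -0.39, all probe sets -0.01), as were those of the 5 genes described above. By limma, 0 of the 13 were called (1 at an unadjusted p under 0.05). The list gene nearest 0 was KEU, at -0.07, and 45.7% of all probe sets lay below it. Of the 13 values, 6 were negative in zone 1, 8 in zone 3 and 4 in zone 4.

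**Figure D4:**
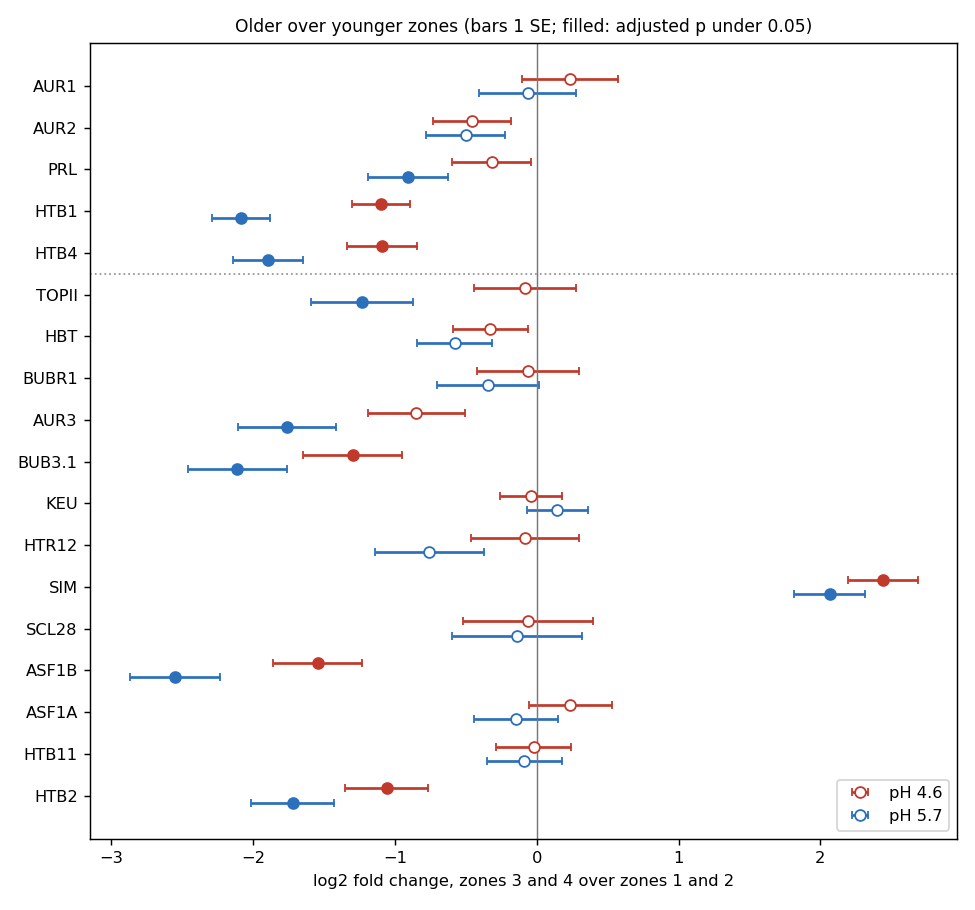
Fitted log2 fold change of zones 3 and 4 over zones 1 and 2 (horizontal axis, bars 1 SE) at pH 4.6 (red, upper) and pH 5.7 (blue, lower) for the 5 genes, above the dotted line, and 13 other cell division genes, with filled points for adjusted p under 0.05. HTB1, HTB4, BUB3.1, ASF1B and HTB2 are left of 0 and filled at both pH values, SIM is right of 0, and HTB11 is at -0.02 and -0.09.

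HTB11, an H2B gene described after its values were seen, had intensities of 1257 ± 507 in zone 3 and 1247 ± 62.3 in zone 2 at pH 4.6, and of 1546 ± 750 in zone 3 and 1529 ± 39.7 in zone 2 at pH 5.7 (SD, n = 2 each). Its value in zones 3 and 4 against zones 1 and 2 was -0.02 ± 0.26 at pH 4.6 and -0.09 ± 0.26 at pH 5.7. Neither passed by limma (adjusted p = 0.962 at pH 4.6 and 0.814 at pH 5.7), and its difference from HTB1 and HTB4 was not tested.

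Markers of other cells also moved between the zones. The summed intensity of 4 root hair genes (of 9 listed) was 2020 to 2408 in zone 3 and 73.4 to 302 in zone 2 at pH 4.6, and 10184 to 13737 in zone 3 and 37.7 to 137 in zone 2 at pH 5.7, the step at which HTB1 and HTB4 fell. In zone 4 it was 131 to 211 at pH 4.6 and 1405 to 1620 at pH 5.7, the zone in which HTB1 had a positive low pH value. BBM, the 1 annotated gene of 10 listed for the stem cell niche and root cap, had 116 and 176 in zone 1 at pH 4.6 and 112 and 132 in zone 1 at pH 5.7, and lay between 1.68 and 64.1 in the arrays of the other zones. The summed intensity of 2 shoot-type photosynthesis genes (of 6 listed) was highest in zone 4, at 551 to 604 at pH 4.6 and 739 to 784 at pH 5.7. The part of these cell types in the results for the 5 genes was not tested.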

How the data were processed

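The series measured total RNA of root zones on 16 Affymetrix arrays. Per the labels' protocols, RNA was purified on Qiagen columns and labelled by the two-cycle protocol. The deposited table holds 1 MAS5 signal intensity for each of 22810 probe sets and array. MAS5 is named in the submitters' processing notes, with a version not given in the sources used here. Arrays had been scaled to 1 target, since their means trimmed by 2% at both ends were all 250.0. The 64 control probe sets were left out of the tests. Their log2 3' to 5' ratio ran between 3.22 and 7.47 for GAPDH, 4.61 and 6.18 for actin, and 2.25 and 3.71 for ubiquitin. For GAPDH in zone 1 it was 7.47 and 5.58 at pH 4.6, and 4.80 and 5.38 at pH 5.7. In zone 3 it was 4.07 and 4.39 at pH 4.6, and 4.97 and 5.51 at pH 5.7. In zone 4 it was 5.58 and 4.86 at pH 4.6, and 3.22 and 3.62 at pH 5.7. Arrays overlapped in zone 2. The part of these differences in the results was not tested. The platform annotation gave 13513 probe sets 1 gene, 503 several and listed no gene for 8730, and 13436 of the first were found in RefSeq's table for TAIR10.1. Of several probe sets of a gene, the brightest on average was used.

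Intensities were analysed as log2(value + 16), with no further normalization. This scale understates changes of dim probe sets. Probe sets with a zone mean at or above the 40th percentile, 5.95, entered the tests, which left 16405. The limma 3.58.1 package (R 4.3.3) fitted 8 group means with eBayes and an intensity trend, on 8 residual degrees of freedom. Tests were two-sided, p-values were adjusted over all 16405 by Benjamini-Hochberg, and calls were made at 0.05. An exact test of 2 arrays against 2 cannot go below 0.333, so single genes were permuted over all zones. The fit was tested on simulated data. Of probe sets changed by 2 log2 units, it recovered 94% for the mean low pH effect (median bias 0.0064) and 82% for zones 3 and 4 against zones 1 and 2 at pH 5.7 (median bias 0.15).

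The genes and lists were chosen with earlier results of these data known. Named besides them are, per list, up to 3 called genes of the largest change (or the gene of smallest p), and the 3 named genes of highest Pearson r to each. Alternatives were other pseudocounts (1, 64), filters, scalings, no trend, a replicate block, and leaving out each array. Added after seeing the data were the exact tests and the fit without 4 arrays of raised plastid signal. That fit left 1 array in each of 4 groups. Its arrays were picked by their difference from the other replicate and not by level. Replicate 2 of zone 4 at pH 5.7 (mean plastid-encoded log2 signal 8.45) was left out, and both arrays of zone 1 at pH 4.6 (9.91 and 10.3) were kept. The number of arrays limits the precision.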

Additional observations from a re-analysis of the deposited data

Results flagged for a closer look

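The low pH value of HTB1 was of opposite sign in 2 zones. It was 0.83 ± 0.29 in zone 4, with both arrays at pH 4.6 above both at pH 5.7, and -1.14 ± 0.29 in zone 2, with both arrays at pH 4.6 below both at pH 5.7, a difference of 1.97 on the log2 scale. The difference between these 2 zones was not tested on its own, and the limma test of the interaction over all 4 zones gave HTB1 an adjusted p of 0.0776.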

How the results depend on the processing

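Without 1 array at a time, calls summed over the 3 zone steps at pH 4.6 ran between 1 and 4. The main count was 4, all of HTB1 and HTB4, with a gene counted at each step it passed. The number of the 5 genes called likewise ran between 0 and 1 for the interaction (main 0), and between 0 and 2 for mean low pH (main 1). It was 0 for mean low pH without the filter (AUR2 adjusted p = 0.0625), with the filter at the 60th percentile, where AUR2 was not tested, and without the 4 arrays of raised plastid signal. Each other count stayed within 1.5 times its main value under all alternatives run, and no called result of the 5 genes changed sign. The rise of HTB1 in zone 4 at pH 4.6 lost its call with arrays centred on their medians (adjusted p = 0.0673), without the intensity trend (0.0899) and without the raised plastid arrays (0.0947). Deviations of arrays with the same replicate number had 28 correlations between groups, between -0.25 and 0.41, with 9 of them over 0.1. These values do not settle whether arrays of the same replicate number belong together. With the replicate number as a block, limma called 1 of the 5 genes for mean low pH (AUR2, adjusted p = 0.0370). Calls summed over the zone steps were then 3 at pH 5.7 (main 2) and 4 at pH 4.6, all of HTB1 and HTB4. Over all probe sets, calls under the planned settings that kept every array ranged between 55 and 133 for low pH in zone 1 (main 112), 26 and 91 in zone 2 (63), 267 and 600 in zone 3 (459), 327 and 668 in zone 4 (477), 584 and 1180 for mean low pH (995), 113 and 517 for the interaction (261), and 82 and 313 for the difference between the falls along the root (165). Without 1 array at a time they ranged more widely, between 33 and 309 in zone 1, 15 and 158 in zone 2, 93 and 1550 in zone 3, 66 and 802 in zone 4, 511 and 1444 for mean low pH, 77 and 1142 for the interaction, and 55 and 590 for that difference. Zone steps ranged likewise between 328 and 2086 (zone 2 against zone 1, main 1428), 1491 and 3825 (zone 3 against zone 2, 3216) and 191 and 1022 (zone 4 against zone 3, 687) at pH 4.6, and at pH 5.7 between 123 and 751 (zone 2 against zone 1, 515) and 629 and 3541 (zone 4 against zone 3, 1961). Median centring moved the median of all probe sets by up to 0.21 (zone 4 against zone 3 at pH 5.7), turned AUR1 to 0.006 in zone 2 against zone 1 at pH 4.6, and quantile normalization turned HTB1 to -0.009 in zone 4 against zone 3 at pH 5.7; none of these was called. The causes were not tested.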
